A study of Mus musculus with 6 samples.

Results

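Galectins are lectins that bind sugars ending in beta-galactose. This account follows 7 genes of the galectin family and its partners in the mouse peritoneum, the lining of the abdominal cavity, in saline-injected control mice and in a model of encapsulating peritoneal sclerosis (EPS), in which fibrous tissue wraps the bowel. The genes were chosen by symbol: Lgals1, Lgals3, Lgals4, Lgals8, Lgals9 and Lgals12, which encode galectins, and Lgals3bp, which encodes a glycoprotein that galectins bind. All 7 were among the 14943 gene symbols in the count table, and all 7 passed the filter on low counts that left 13980 genes for testing.

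Wild-type male C57BL/6J mice aged 8 weeks gave 3 control and 3 EPS libraries. EPS mice were injected into the abdomen each day with 4.25% peritoneal dialysis solution (100 mL/kg) and 0.3 mL of an agent that the labels call SHS, and once a week with the bacterial endotoxin lipopolysaccharide (LPS, 4 mg/kg), while controls were given saline of equal volume. Peritoneum was taken in week 3. No group received the dialysis solution, SHS or LPS alone, so their contributions cannot be told apart.

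Galectins are made in the cytosol and leave the cell by a route that bypasses the usual secretory pathway. Outside the cell they cross-link glycoproteins on cell surfaces and in the matrix, and inside it they bind sugars exposed on damaged vesicles. Prototype galectins carry a single sugar-binding domain and pair up (galectin-1), the chimera type adds a long tail rich in proline and glycine (galectin-3), and tandem-repeat types hold a pair of domains on a single chain (galectins 4, 8, 9 and 12). Galectin-3, first described as the macrophage surface antigen Mac-2, and galectin-1, a product of connective tissue and vessel cells, are both studied in organ fibrosis.

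The stretch of codons that defines the family is shown because the number of copies and the spacing of its blocks differ between members. Each line below is read from a coding transcript of the GENCODE vM21 annotation, from the codons for histidine, any residue, asparagine, proline and arginine (first capitals) to those for tryptophan, glycine, any residue and glutamate (second capitals), where the bound sugar is held. The N and C endings mark the first and the second domain of a chain.
Lgals1: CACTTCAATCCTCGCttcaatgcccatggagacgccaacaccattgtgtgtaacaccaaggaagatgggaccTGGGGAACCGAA
Lgals3: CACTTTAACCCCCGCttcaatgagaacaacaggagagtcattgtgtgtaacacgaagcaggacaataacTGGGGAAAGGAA
Lgals4-N: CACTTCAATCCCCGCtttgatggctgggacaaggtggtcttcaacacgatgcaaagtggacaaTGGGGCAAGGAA
Lgals4-C: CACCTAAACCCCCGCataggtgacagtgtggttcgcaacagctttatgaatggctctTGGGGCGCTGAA
Lgals8-N: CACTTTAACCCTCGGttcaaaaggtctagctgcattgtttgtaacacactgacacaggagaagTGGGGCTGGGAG
Lgals8-C: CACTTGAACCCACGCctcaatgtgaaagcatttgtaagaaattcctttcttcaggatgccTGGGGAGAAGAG
Lgals9-N: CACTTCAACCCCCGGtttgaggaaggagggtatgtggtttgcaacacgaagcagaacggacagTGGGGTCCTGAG
Lgals9-C: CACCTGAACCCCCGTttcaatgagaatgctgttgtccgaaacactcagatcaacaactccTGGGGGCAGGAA

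The first block was found once in Lgals1 and Lgals3 and 2 times each in Lgals4, Lgals8 and Lgals9, and the second block, chosen after the sequences were seen, had the same counts. The distance between the blocks varied, so that the window spans 28 codons in Lgals1, 27 in Lgals3 and 23 in the second domain of Lgals4. Neither block was found in Lgals12, whose domains are known to depart from the family pattern, or in Lgals3bp, which is not a galectin. The longest coding sequences ran from 135 codons in Lgals1 to 353 in Lgals9 among the galectins and 577 in Lgals3bp. In Lgals3, 75.0% of the first 100 codons encode proline, glycine, tyrosine or alanine, against 17.0% to 31.0% in the other 6 genes, which is the tail of the chimera type.

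Of the 7 genes, 3 were higher in EPS (Lgals3, Lgals9 and Lgals3bp), 3 were lower (Lgals1, Lgals4 and Lgals12) and Lgals8 did not pass the test. The calls are at an adjusted p under 0.05 in edgeR's quasi-likelihood test over all genes, which called 59.6% of the genes tested, 29.2% higher and 30.4% lower. With so wide a response across the table, the number of members called says little about the family, and the account below is of which members moved each way and by how much. Levels are CPM, counts scaled to a common library size, each group mean with its SD (n = 3), and log2 fold changes are EPS minus control with their standard error. Nothing in the labels says whether the replicates are separate mice, so the p-values measure the spread between these libraries.

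Library totals ran from 15419232 to 17684229 counts. EPS 1 stood apart: 12 genes of the exocrine pancreas summed to 146800 CPM there and to between 166.3 and 3802 CPM in the other 5 libraries, so values without EPS 1 are given below. The most alike libraries, controls 1 and 2, differed by more than sampling noise (mean chi-square 4.41 per gene), but less than either did from control 3 (15.9 and 16.4). They also shared a high exocrine pancreas sum (3802 and 3578 CPM, against 334.5 CPM in control 3). The chi-square cannot show whether they came from separate mice. All 3 controls were kept, and the average of controls 1 and 2 was run as an alternative. All 11 markers of the mesothelium, the peritoneum's covering layer, were detected. They summed to 155 to 242 CPM in controls and 60.8 to 406 CPM in EPS, beside 33050 to 33810 CPM for 14 adipocyte markers in controls. The 406 CPM is that of EPS 1, where Krt18 was at 106 CPM and Krt8 at 86.3 CPM. Detection alone does not show how much of the tissue was peritoneal lining. None of the 11 was called by edgeR (0 at an unadjusted p under 0.05) or limma-voom, and 2 were called higher by DESeq2. Without EPS 3, 4 were higher and 1 lower.

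**Figure D1:**
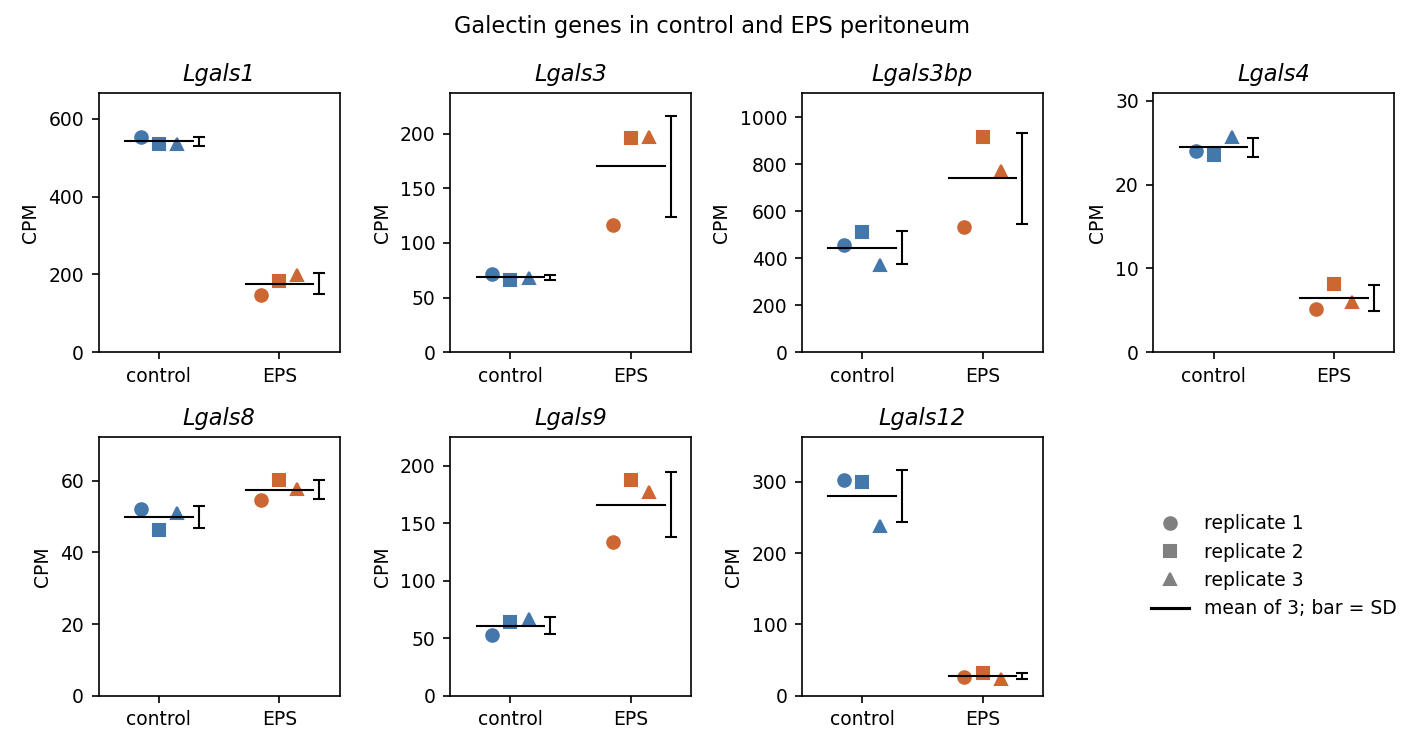
CPM of each gene (y axis, linear from 0) in the control and EPS groups (x axis), with a symbol for each replicate, a line at the mean of 3 libraries and a bar for the SD. Lgals3, Lgals9 and Lgals3bp sit higher in EPS, Lgals1, Lgals4 and Lgals12 sit lower, and EPS 1 is the lowest EPS library for each gene except Lgals12.

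Galectin-1, the highest galectin per length in controls, fell. Lgals1 (GRCm38 chr15:78926725-78930465, plus strand), the prototype galectin, stood at 554, 535 and 537 CPM in controls 1 to 3 and at 147, 183 and 199 CPM in EPS 1 to 3. The controls lay within a narrow band and every EPS library was far below it. The level fell 3.08-fold (log2 fold change -1.62 ± 0.13, adjusted p = 2.75e-05) and was at -1.43 without EPS 1. The annotation holds 2 processed pseudogenes of Lgals1, not analysed here, and with no record of how shared reads were counted its level is uncertain to that extent.

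Galectin-3 rose. Lgals3 (chr14:47367751-47386160, plus strand), the chimera galectin of macrophages and many other cells, was at 71.2, 66.5 and 68.3 CPM in controls and at 116, 196 and 197 CPM in EPS. EPS 2 and EPS 3 were almost the same, EPS 1 was lower, and all 3 lay above the controls. The level was 2.48-fold higher (1.31 ± 0.20, adjusted p = 8.24e-04), with 1.59 without EPS 1. Lgals3bp (chr11:118392751-118402092, minus strand) encodes a secreted, heavily glycosylated partner of galectin-3 with a scavenger receptor domain. It was at 456, 510 and 371 CPM in controls and at 533, 918 and 770 CPM in EPS. EPS 1 lay just above the highest control, so the groups were parted by a narrow gap. The change was 1.66-fold (0.73 ± 0.22, adjusted p = 0.0188). The call was lost without control 1 (0.75, adjusted p = 0.0612) and without control 3 (0.61, adjusted p = 0.0756), and the adjusted p over all alternatives ran from 5.74e-04 to 0.0756. Without EPS 1 the change was 0.99 (adjusted p = 5.74e-04).

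The tandem-repeat galectins went different ways. Lgals9 (chr11:78962974-78984946, minus strand) encodes galectin-9, a ligand of the T cell inhibitory receptor Tim-3. It was at 52.4, 63.7 and 66.5 CPM in controls and at 134, 187 and 177 CPM in EPS. The lowest EPS library was above 2 times the mean of controls. The change was 2.73-fold upward (1.45 ± 0.16, adjusted p = 1.09e-04), and 1.65 on the log2 scale without EPS 1. By its estimate this was the largest rise of the 7 genes. The 95% interval of Lgals9, 2.13-fold to 3.51-fold, overlapped that of Lgals3, 1.8-fold to 3.42-fold. Lgals8 (chr13:12439415-12464944, minus strand) encodes galectin-8, which in human cells marks damaged vesicles for autophagy. Its level was at 52.1, 46.4 and 51.1 CPM in controls and at 54.7, 60.2 and 57.7 CPM in EPS. The groups did not overlap, as was the case for 68.5% of the genes tested, but the difference was small (1.15-fold; 0.21 ± 0.10, adjusted p = 0.0948). Its 95% interval runs from 0.990-fold to 1.34-fold. Without EPS 1 the change was 0.31 and passed (adjusted p = 0.0340), and the adjusted p over all alternatives ran from 0.0143 to 0.306. Lgals8 shares 155 exon bases with Heatr1 on the other strand, a ribosome biogenesis gene that rose by 1.26 ± 0.15. The labels describe no step that marks strand, so whether reads there were assigned by strand is unknown. Their part in the Lgals8 value was not tested.

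Lgals4 and Lgals12, whose products are known from gut epithelium and from fat cells, fell. Lgals4 (chr7:28833854-28841708, plus strand) was at 24.0, 23.6 and 25.7 CPM in controls and at 5.13, 8.18 and 5.99 CPM in EPS. All EPS libraries were below all controls, a 3.78-fold fall (-1.92 ± 0.19, adjusted p = 7.60e-05; -1.72 without EPS 1). Lgals12 (chr19:7596660-7607193, minus strand) encodes the galectin of lipid droplets, which restrains fat breakdown in mice. It was at 303, 299.9 and 238 CPM in controls and at 26.6, 32.0 and 23.6 CPM in EPS. Control 3 was the lowest control, and EPS 2 the highest EPS library, at 0.114 of the control mean. The fall was 10.2-fold (-3.35 ± 0.16, adjusted p = 2.79e-06), and only 1.09% of the genes tested had a lower log2 fold change. Without EPS 1 it was -3.27.

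**Figure D2:**
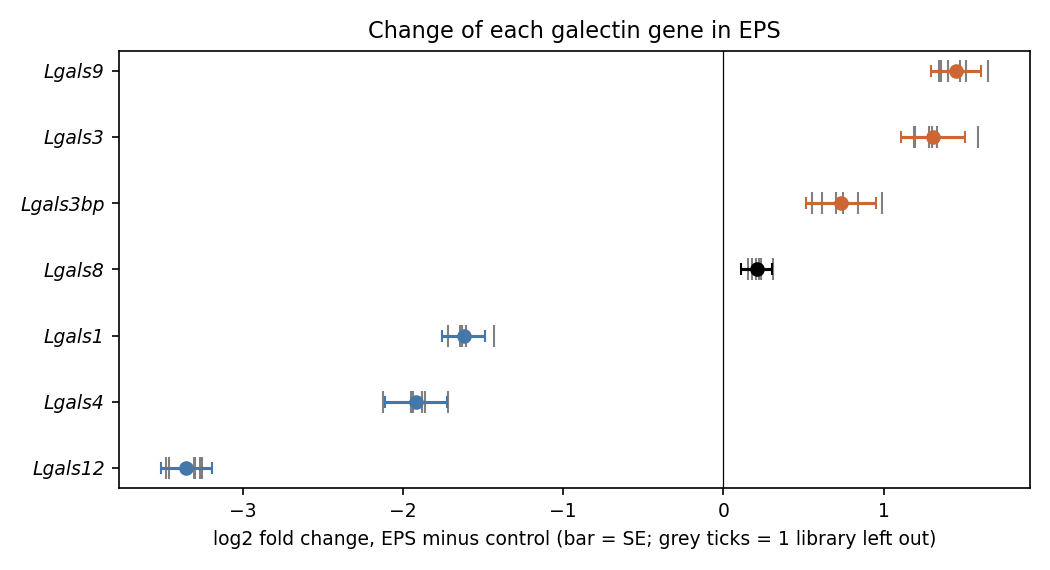
Log2 fold change of each gene, EPS minus control (x axis), with its standard error as a bar and grey ticks for the values with each of the 6 libraries left out. Lgals9 at 1.45 and Lgals12 at -3.35 mark the ends of the range, and no left-out library moves a gene across 0.

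Scaled by the length of their annotated exons, the galectins can be set against each other. In controls the order was Lgals1 (600.2 ± 12.01 CPM per kb), Lgals12 (101 ± 13.2), Lgals3 (37.0 ± 1.27), Lgals9 (28.5 ± 3.48), Lgals8 (13.5 ± 0.832) and Lgals4 (10.6 ± 0.491), and neighbours in this order did not overlap. In EPS it was Lgals1 (195 ± 29.3 CPM per kb), Lgals3 (91.5 ± 25.0), Lgals9 (77.8 ± 13.4), Lgals8 (15.6 ± 0.740), Lgals12 (9.88 ± 1.52) and Lgals4 (2.78 ± 0.678). Here Lgals3 and Lgals9 were within each other's spread, and the other neighbours did not overlap. Lgals3bp, on the same scale, was at 156 ± 24.6 CPM per kb in controls and 260 ± 68.2 in EPS, where EPS 1 at 187 CPM per kb overlapped the range of Lgals1.

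The summed level of the 6 galectins fell from 791 ± 18.9 to 393 ± 67.6 CPM per kb, and its make-up changed. Lgals1 held 75.9% ± 0.907 of the sum in controls and 49.9% ± 2.26 in EPS, and Lgals12 held 12.8% ± 1.44 and 2.57% ± 0.559. Lgals3 held 4.67% ± 0.117 in controls and 23.0% ± 2.69 in EPS, and Lgals9 3.61% ± 0.520 and 19.8% ± 0.754. For the sum and for each of these shares the groups did not overlap, with an exact two-sided permutation p of 0.1, the smallest that 3 against 3 libraries allows. The ratio of Lgals3 to Lgals1 per length was between 0.0605 and 0.0624 in the controls and was 0.384, 0.522 and 0.482 in EPS 1 to 3. The fall of Lgals1 and the rise of Lgals3 both enter this ratio, and the sum follows Lgals1 above all.

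**Figure D3:**
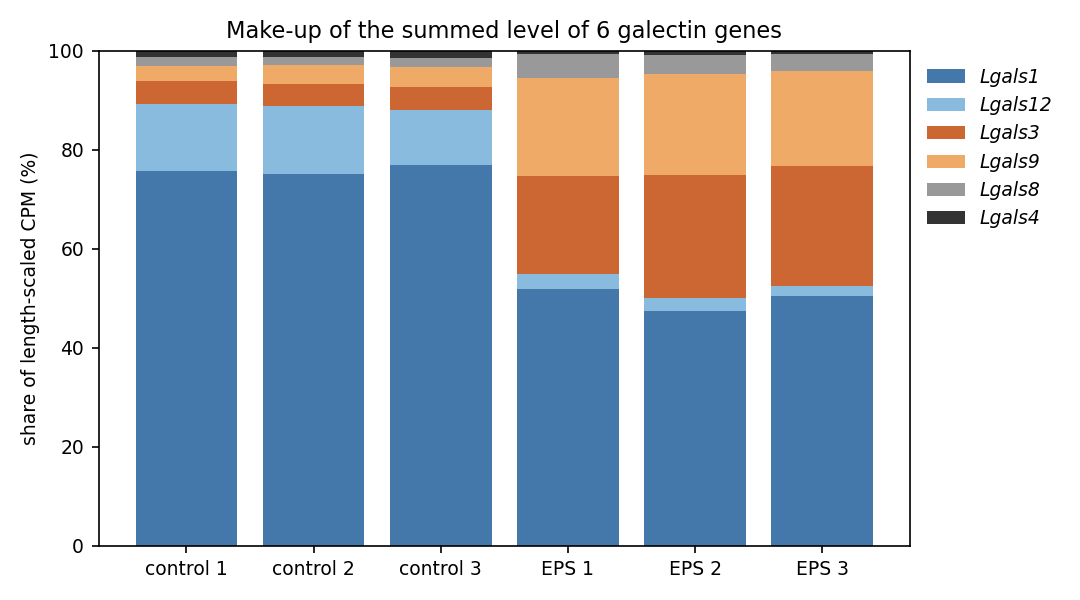
Share of each gene in the summed length-scaled CPM of 6 galectin genes (y axis, %) in each library (x axis). Lgals1 and Lgals12 fill most of the control bars, and Lgals3 and Lgals9 widen from 4.67% and 3.61% in controls to 23.0% and 19.8% in EPS.

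Markers of cells known for several of these galectins were compared as well, and not every list moved as a whole. In bulk tissue, fewer cells of a type and less RNA per cell cannot be told apart. All 14 adipocyte markers were lower, with a median log2 fold change of -3.40 beside -3.35 for Lgals12, against -0.015 over all genes tested. Their summed level was 33050 to 33810 CPM in controls and 2903 to 4718 CPM in EPS, and none was at 0. Among them Plin4, a lipid droplet coat gene, was at -3.86 ± 0.17, Fabp4, a fatty acid carrier, at -3.46 ± 0.18 and Pnpla2, the first lipase of triglyceride breakdown, at -3.35 ± 0.17. The part of these cells in the fall of Lgals12 was not tested. All 8 blood endothelial markers were lower too, with a median of -1.38 and a summed level of 2448 to 2597 CPM in controls and 1008 to 1196 CPM in EPS. They include Tek (-1.75 ± 0.10), Flt1 (-1.70 ± 0.10) and Esam (-1.62 ± 0.16), receptors and a junction protein of vessels, beside -1.62 for Lgals1. Of 12 fibroblast markers, which connective tissue shares with Lgals1, 7 rose and 1 fell (median 0.93), and the summed level was 3990 to 4235 CPM in controls and 7813 to 13350 CPM in EPS. The collagen genes Col1a1 (2.28 ± 0.24) and Col1a2 (1.91 ± 0.22) and the surface antigen gene Thy1 (2.47 ± 0.25) rose while Lgals1 fell. Other markers, named after their values were seen, did not rise with them. Pdgfrb fell (-0.41 ± 0.13), and Pdgfra (0.04 ± 0.16), Dcn (0.25 ± 0.22), Dpt (-0.52 ± 0.21) and Postn (0.59 ± 0.23) were not called. The single fibroblast marker that fell kept no call without EPS 1, EPS 3 or any of the 3 controls, and 2 fell without EPS 2. The part of either cell type in the Lgals1 value was not tested.

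Macrophage and monocyte markers rose in 16 of 18 cases, where 29.2% of all genes rose, and 1 further marker was lower. Their median was 2.14, beside 1.31 for Lgals3. Cd68, a lysosomal protein of macrophages, was at 3.16 ± 0.11, the chemokine receptor gene Cx3cr1 at 4.13 ± 0.16 and the complement gene C1qb at 2.13 ± 0.10. Named after their values were seen, Cd163 (-0.72 ± 0.25) was the marker that was lower, and Cd14 (0.93 ± 0.39) was not called. Cd163 had no call without EPS 2, EPS 3 or any of the 3 controls. The summed level of the list was 1061 to 1181 CPM in controls and 5246, 4528 and 4587 CPM in EPS 1 to 3. The sum was highest in EPS 1, as was Lyz2, the lysozyme gene (2166, 1393 and 1648 CPM). Without Lyz2, a step chosen after seeing the data, the sum was 3080, 3135 and 2939 CPM. Of the 18 markers, 6 were highest and 8 lowest in EPS 1 within the EPS group. Such counts of order were also made after seeing the data. Lgals3, Lgals9 and Lgals3bp were lowest in EPS 1, as were Lgals1, Lgals4 and Lgals8. All 18 interferon-stimulated genes rose, with a median of 2.36, and their sum was 403 to 424 CPM in controls and 1260, 2507 and 2005 CPM in EPS 1 to 3. In this list EPS 1 was the lowest for 16 of 18 genes. By its sum, EPS 3 lay between EPS 1 and EPS 2. Lgals9, Lgals3bp, Lgals4 and Lgals8 had the same order, and Lgals1, Lgals3 and Lgals12 did not. The adipocyte sum had it too (2903, 4718 and 4576 CPM in EPS 1 to 3), and 3 libraries can take few orders. The 4 genes of lowest adjusted p were Cxcl10, a T cell chemokine (4.78 ± 0.27), Irgm1, an immunity GTPase (1.79 ± 0.15), Oas1a, a sensor of double-stranded RNA (3.75 ± 0.33) and Irf7, a transcription factor of the interferon response (3.79 ± 0.32). The part of macrophages or of interferon in the galectin values was not tested.

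**Figure D4:**
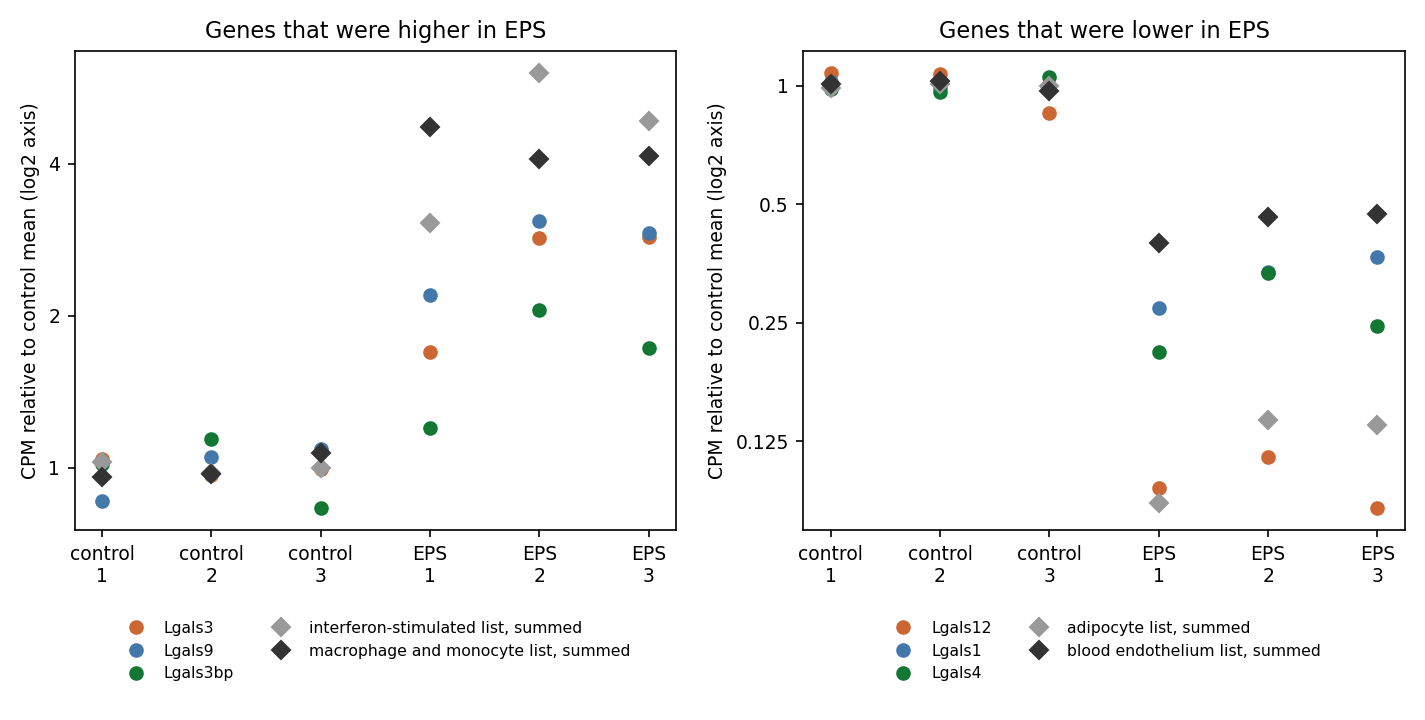
CPM of single genes (circles) and summed CPM of marker lists (diamonds) in each library (x axis), relative to the mean of the 3 controls (y axis, log2 scale). Among the genes that rose, EPS 1 is the lowest EPS library for the galectins and for the interferon-stimulated list, at 3.05 times the control mean. It is also the lowest for the adipocyte list (0.0869) and the blood endothelium list (0.398), so this trait is not particular to the genes that rose. The macrophage list, at 4.74 times the control mean in EPS 1, is not highest there once Lyz2 is left out.

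Galectin-4 is best known from intestinal epithelium. Of that cell type's markers, 6 of the 13 in the table passed the filter, and 2 of these were higher and 1 lower. The summed level of the 13 was 4.23 to 15.3 CPM in controls and 12.6 to 57.5 CPM in EPS. Epcam made up most of it in EPS 2 and EPS 3, at 43.2 and 8.37 CPM. In EPS 1 most of it was Epcam (24.1 CPM) and Krt20 (24.5 CPM), so the sum does not describe the list as a whole. Tff3 had no count in any library, and Apoa1, Sis, Fabp2 and Cdx2 had none in EPS. The adhesion genes Epcam (5.30 ± 0.71) and Cdh17 (3.33 ± 0.79) rose, and the mucin gene Muc13 was at -2.76 ± 0.82 with overlapping groups. No marker was lower without control 1 or control 2, 3 were without control 3, 4 without EPS 1 and 2 without EPS 3. In control 3, where this list summed to 4.23 CPM against 15.3 and 14.6 CPM in controls 1 and 2, Lgals4 was at 25.7 CPM. The part of these cells in the Lgals4 value was not tested. Of the other lists, all 10 neutrophil markers (median 7.93) rose, among them the receptor genes Csf3r (5.25 ± 0.21) and Cxcr2 (7.65 ± 0.43). All 11 T and NK cell markers (median 5.77) rose as well, with Gzmb, a killer cell protease gene, at 6.12 ± 0.30 and the T cell co-receptor gene Cd8a at 6.96 ± 0.37. None of 11 exocrine pancreas genes tested was called by edgeR (0 at an unadjusted p under 0.05), DESeq2 or limma-voom, and 1 was lower without EPS 1.

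The promoters of the 3 genes that rose are shown because these members moved together. Each is the RefSeq window of GRCm38.p6 from 250 bases before the transcript start to 50 bases after it, written on the strand of the gene, with capitals for matches to 5 of the 6 motifs searched. RefSeq windows were matched for 5 of the 7 genes. Lgals9 lies on the minus strand at chr11:78984875-78985174, Lgals3bp on the minus strand at chr11:118401910-118402209 and Lgals3 on the plus strand at chr14:47373610-47373909, inside the span of its GENCODE gene model.
Lgals9: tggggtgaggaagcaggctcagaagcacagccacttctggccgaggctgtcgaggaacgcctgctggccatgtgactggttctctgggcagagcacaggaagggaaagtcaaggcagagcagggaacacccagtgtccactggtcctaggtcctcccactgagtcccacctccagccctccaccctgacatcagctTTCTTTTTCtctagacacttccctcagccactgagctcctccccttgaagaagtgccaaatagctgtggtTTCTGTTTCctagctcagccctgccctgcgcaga
Lgals3bp: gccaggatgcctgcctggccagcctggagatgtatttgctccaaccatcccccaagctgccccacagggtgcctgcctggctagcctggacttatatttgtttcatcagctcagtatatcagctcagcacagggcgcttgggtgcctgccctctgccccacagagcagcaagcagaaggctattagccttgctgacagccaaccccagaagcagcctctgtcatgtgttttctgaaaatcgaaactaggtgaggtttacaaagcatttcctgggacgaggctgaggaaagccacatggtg
Lgals3: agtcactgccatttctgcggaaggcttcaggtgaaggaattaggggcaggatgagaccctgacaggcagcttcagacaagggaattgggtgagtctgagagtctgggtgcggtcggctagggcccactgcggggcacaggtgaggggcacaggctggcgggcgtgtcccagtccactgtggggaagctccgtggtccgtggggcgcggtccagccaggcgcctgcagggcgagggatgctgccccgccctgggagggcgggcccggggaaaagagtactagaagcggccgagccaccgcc

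The motifs searched on both strands were the interferon response core GAAANNGAA, the GAS motif TTCNNNGAA, the kappaB form GGANTTTCC, the C/EBP form TTNNGCAAT, the AP-1 site TGANTCA and the GC box GGGCGG. Lgals9 held 2 matches to the interferon response core on its opposite strand, starting 54 bases before and at base 17 after the transcript start. This core was found in 8.56% of the 32851 promoter windows. Lgals3 held 2 GC boxes, a motif of 35.7% of the windows that is not in capitals, and Lgals3bp held none of the 6. The GAS, kappaB, C/EBP and AP-1 letters, found in 8.30%, 1.25%, 2.18% and 7.81% of the windows, were in none of the 5 windows of the family. A match describes letters only, and a missing one says nothing of the factor.

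Of 20 galectin receptors and partners, 12 rose, where 29.2% of all genes did, and 2 fell, with a median log2 fold change of 1.29 against -0.015 over all genes. Cd44, the hyaluronan receptor and a glycoprotein that galectins bind, rose from 25.2 ± 1.74 to 167 ± 16.8 CPM. Ptprc, the leukocyte phosphatase CD45 that galectin-1 binds on T cells, rose from 7.12 ± 2.33 to 191 ± 26.5 CPM. Cd40, a TNF receptor family gene, rose from 2.22 ± 0.512 to 30.0 ± 6.14 CPM. Tnfrsf9, another of that family, was at 0.246 ± 0.0952 CPM in controls and 14.4 ± 4.14 CPM in EPS. Other members are named after their values were seen. Havcr2, which encodes Tim-3, rose from 0.532 ± 0.521 to 9.31 ± 2.64 CPM (4.10 ± 0.60), and Trem2, a lipid receptor of macrophages that binds galectin-3, from 1.94 ± 0.730 to 19.2 ± 3.23 CPM (3.31 ± 0.28). The 2 that fell were Mcam (-2.27 ± 0.19), a vessel adhesion molecule, and Nrp1 (-0.58 ± 0.15), a co-receptor on vessel cells. The 6 not called were Itgb1 (-0.28 ± 0.12), Lamp1 (-0.21 ± 0.11), Lamp2 (-0.08 ± 0.15), Alcam (-0.46 ± 0.35), Mertk (0.28 ± 0.22) and Vps13c (0.07 ± 0.19). Lamp1 was at 897 CPM and Itgb1 at 517 CPM in controls. The list summed to 2912 to 3016 CPM in controls and 3781, 3160 and 3083 CPM in EPS 1 to 3, so the median does not describe the sum. The leukocyte markers above mostly rose too, and their part in this list was not tested.

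Of 19 enzymes that build or cap galectin ligands, 9 rose and 3 fell, a share called close to the 59.6% of all genes, and the median log2 fold change was 0.40. Gcnt1, which branches O-linked sugars, rose from 8.09 ± 1.01 to 28.5 ± 4.10 CPM. St6gal1, whose alpha-2,6 sialic acid caps block galectin-1 binding, rose from 39.0 ± 0.946 to 99.2 ± 15.6 CPM. Man2a2, a Golgi mannosidase, fell from 485 ± 37.6 to 138 ± 13.7 CPM, and Mgat4b, an N-glycan branching enzyme, from 144 ± 9.75 to 68.7 ± 6.81 CPM. The number that rose was 5 without control 1 and 5 without control 2. Galectins 3 and 8 take part in the response to damaged endosomes and lysosomes. Of 15 genes of this response, 3 rose and 8 fell, where 29.2% and 30.4% of all genes did, and the median was -0.39. The autophagy receptor gene Optn fell from 92.7 ± 4.69 to 31.3 ± 4.94 CPM, and Map1lc3b, for the autophagosome protein LC3B, from 271 ± 6.10 to 142 ± 13.5 CPM. Ubqln1, a ubiquitin-binding shuttle, fell by 0.73 ± 0.11 and the autophagy kinase gene Ulk1 by 0.71 ± 0.12 on the log2 scale. The 3 that rose, named after their values were seen, were Tfeb (0.82 ± 0.15), Chmp4b (0.39 ± 0.11) and Tfe3 (0.30 ± 0.10). The number that rose was 1 without control 1 and 1 without control 2. With library totals alone, 5 rose and 3 fell.

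Among 12015 other genes with a mean count of at least 50, those nearest to each member in their log2 CPM profile over the 6 libraries are given as a description. The distance is the root-mean-square difference after each profile was centred on its mean. For Lgals12 they were the phospholipid enzyme gene Chpt1 (0.110), the fatty acid transporter gene Cd36 (0.135) and Acsm3, a medium-chain acyl-CoA synthetase (0.137). Lgals1 was nearest to Ltc4s (0.0580), which makes leukotriene C4, the 14-3-3 adaptor gene Ywhag (0.0608) and Ndufb3 of respiratory complex I (0.0621). Lgals4 was nearest to Popdc2 (0.0442), the natriuretic peptide receptor gene Npr2 (0.0591) and Tmem88b (0.0637).

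Lgals3 was nearest to Zscan2 (0.0584), the RNA helicase gene Mov10 (0.0796) and Irf9 (0.0877), a transcription factor gene of the interferon response. Lgals9 was nearest to Tnfsf13b (0.0960), which encodes the B cell survival factor BAFF, to Pacc1 (0.0989), a proton-activated chloride channel gene, and to Tmem106a (0.104). For Lgals3bp the nearest were the netrin receptor gene Unc5b (0.0618), Taf6l (0.0966) and Mmp23 (0.0967). The profile of Lgals8, nearly flat, was nearest to Smyd5 (0.0283), the histone demethylase gene Kdm4a (0.0385) and Vipas39 (0.0388).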

How the data were processed

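RNA sequencing of poly(A)-selected RNA was available for 6 libraries of mouse peritoneum, grouped by their titles. The authors deposited a table of raw read counts per gene symbol, whole numbers with no normalization. Per the submitters' processing notes the build was mm10. No source used here names the aligner, the counting tool or the annotation, and the labels' protocols describe no step that marks strand.

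From the counts, edgeR's filterByExpr left 13980 of 14943 genes. EPS was compared with control in edgeR 4.0.16 (R 4.3.3), by the robust quasi-likelihood F-test on TMM-scaled libraries, with no covariates and Benjamini-Hochberg adjustment over all genes tested. SE is the log2 fold change divided by the square root of F, and intervals use the test's degrees of freedom. Lengths are the union of GENCODE vM21 exons. Alternatives were RLE and upper-quartile factors, library totals, no filter, DESeq2 1.42.0, limma-voom (limma 3.58.1), each library left out, controls 1 and 2 averaged, a replicate block and, chosen after seeing the data, removal of exocrine pancreas genes.

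The members, the 13 gene lists and the rules were chosen with earlier results of these data known. Named were all members, the 3 nearest profiles of each, up to 4 called genes of lowest adjusted p from each pathway list and up to 3 from each cell type list; where a list is described by its counts only, its named genes are left out.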

Additional observations from a re-analysis of the deposited data

How the results depend on the processing

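Over 15 alternatives for each of the 7 genes, all 105 log2 fold changes kept their direction and 101 their side of the threshold. Library totals alone moved the median of all genes from -0.015 to 0.41 on the log2 scale and the share of calls that were higher from 49.1% to 72.2%, with 2182 genes lower in place of 4245. Under that scaling Lgals8 passed at 0.64, beside the shifted median of 0.41. In the main fit it was at 0.21, beside a median of -0.015. Leaving out each library in turn gave 0.15 to 0.31 for Lgals8 and 0.55 to 0.99 for Lgals3bp, and 2 to 4 galectins higher. The number of galectins lower was 3 under every alternative. The replicate block left 8113 genes called in place of 8333, with 3 galectins higher and 3 lower, and changed the call of none of the 7 genes (Lgals3bp at 0.71, adjusted p = 0.0186). Samples with the same replicate number deviated together for numbers 1 (r = 0.201) and 3 (0.236) but not for 2 (-0.095), and 4 of 6 libraries correlated best with their own number, so the numbers were not taken as pairs. For the shares of Lgals1, Lgals3 and Lgals12 among galectins, no alternative changed the direction. The Lgals12 difference was -10.2 percentage points per length and -22.6 without length scaling. With library totals, 1 galectin receptor fell in place of 2 and no macrophage marker did. Averaging controls 1 and 2 left 5 glycan enzymes and 1 endolysosomal gene higher. Under the replicate block 2 fibroblast markers and 1 mesothelium marker were lower and no intestinal marker was. Without the filter 3 intestinal markers were lower. Removing exocrine pancreas genes before scaling, an alternative chosen after seeing the data, changed no galectin call.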

Other observations

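The table holds 3 further genes with galectin names. Lgalsl, for a galectin-like protein, fell from 45.2 ± 6.47 to 17.1 ± 2.30 CPM (log2 fold change -1.40 ± 0.15, adjusted p = 1.27e-04 in edgeR's test), with no overlap between groups. Lgals2, for a prototype galectin, was low, at 1.89 ± 0.715 CPM in controls and 0.638 ± 0.544 CPM in EPS (adjusted p = 0.0597). Lgals7, for a galectin of stratified epithelium, was at 1.06 ± 0.0755 and 0.870 ± 0.380 CPM with overlapping groups (adjusted p = 0.596).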
